A study of Bos taurus with 16 samples.

Results

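Kidney RNA of cattle after 3 rounds of linear amplification was set against unamplified kidney RNA on a custom bovine cDNA array with 2 colours. The comparison takes every array labelled round 3 (4 arrays) and every array labelled round 0 (4 arrays), which is 8 of the 16 arrays of the series and 4 of its 8 kidney RNAs. Round 0 is total RNA that was not amplified, and round 3 is RNA carried through 3 amplifications. Each round has 2 kidney RNAs, replicates 1 and K, and each RNA was hybridised on 2 arrays with the dyes exchanged, Cy3 on one and Cy5 on the other. All arrays share a reference RNA that had itself been amplified for 2 rounds, so that round 0 sets an unamplified sample against an amplified reference. RNA was isolated with Trizol, and targets were made with Superscript III and amino-allyl dUTP. Whether 1 and K came from different animals is not in the labels, so a p-value here covers the spread of these RNAs alone, which may be technical.

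Linear amplification copies messenger RNA by reverse transcription from an oligo-dT primer that carries a T7 promoter, followed by in vitro transcription to antisense RNA, and repeats this to gain material. Its known property is a copy number that grows in proportion to the input, with products that can become shorter at each repeat. Kidney tubules are rich in membrane transporters, brush border peptidases and secreted enzymes, which makes genes of these groups useful landmarks in such RNA.

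Ratios are given as log2 of kidney over reference after each array's median was set to 0, and a change is the ratio at round 3 minus that at round 0. The direction is likely and not stated: it was set so that kidney genes lie above the reference, and the other direction would turn every sign. Changes are relative to the bulk of the features, since without centring the median of all changes was -0.34. The unit tested is a feature, a spotted cDNA clone printed as duplicate spots, and 5537 features of 4360 genes were tested. On the 8 arrays 84.3% to 94.4% of the 16896 spots had a ratio. Duplicate spots correlated at 0.714 to 0.813 on round 0 arrays and 0.560 to 0.784 on round 3 arrays. The deposited ratios are written with 3 decimals in every cell of the 4 round 0 arrays. On the 4 round 3 arrays this holds for 84.1% to 87.4% of the cells, and on the arrays of rounds 1 and 2 for 83.2% to 88.2%. A difference in how the files were made cannot be told apart from the difference between round 0 and the amplified rounds.

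After 3 rounds, 643 features (11.6%) passed the limma test at an adjusted p under 0.05, 253 of them higher (4.57%) and 390 lower (7.04%). Without centring 130 passed, 21 higher and 109 lower, so that higher calls made up 16.2% in place of 39.3%. The change of all features ran from -1.52 to 1.46 between the 5th and 95th percentiles of the table, with a median size of 0.54, and among called features the median size was 1.44. The smallest called change was 0.77. At an unadjusted limma p under 0.05 there were 1749 of the 5537 features. An absolute change over 2 was seen in 231 features, of which 135 passed. The count rests on each of the 4 RNAs. Leaving out replicate 1 of round 0 gave 191 calls and leaving out its replicate K gave 151, and for round 3 the counts were 145 and 91. In all, 60 features (24 higher, 36 lower) passed in each of the 8 fits that left out 1 RNA of the series. An exact permutation test on a single feature with 2 RNAs against 2 cannot go below p = 0.333, so such a test could call no feature. The calls rest on the limma fit, which shares its estimate of spread across rounds and features.

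**Figure D1:**
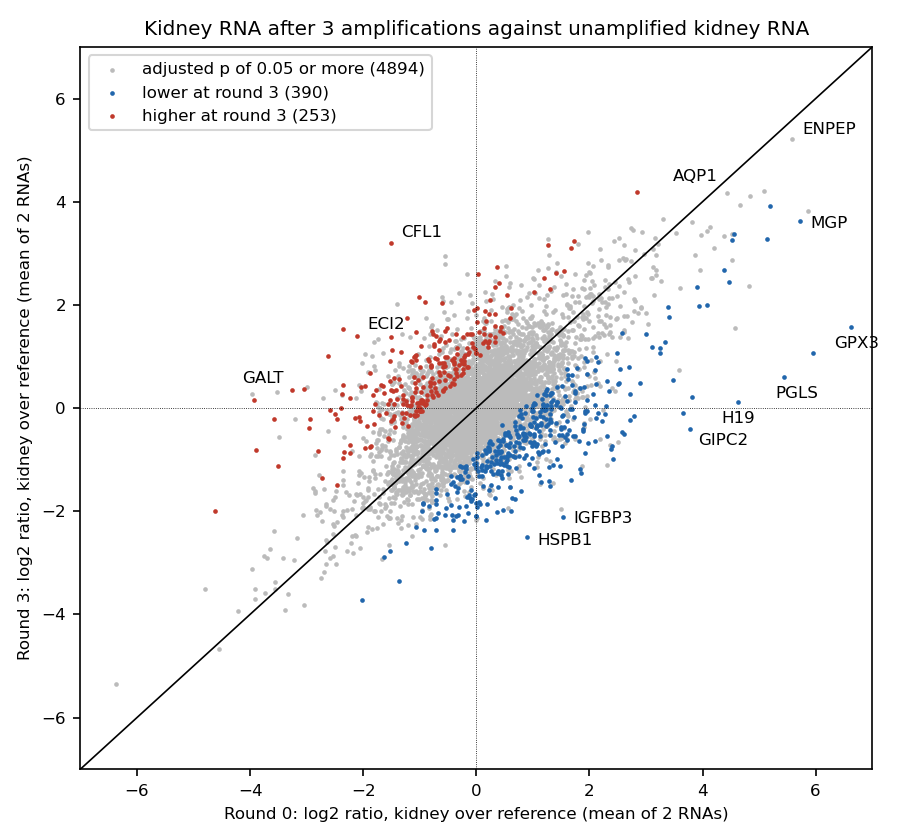
Mean log2 ratio of kidney over reference at round 0 (x axis) and round 3 (y axis) for 5537 features, each the mean of 2 RNAs, with the 253 higher features in red, the 390 lower in blue and the diagonal as a line. Features of CFL1 and GALT lie above the diagonal, those of GPX3, PGLS and H19 lie below it, and ENPEP and AQP1 lie close to it.

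The feature of CFL1, the actin-severing protein cofilin, rose most. On the round 0 arrays (replicate 1 in Cy3 and Cy5, then replicate K in Cy3 and Cy5, the order used throughout) its ratios were -1.64, -1.29, -1.79 and -1.33, and at round 3 they were 2.84, 3.90, 2.91 and 3.13. All 4 round 3 arrays stood above the reference and all 4 round 0 arrays below it. The change was 4.71 ± 0.21 (limma SE, n = 2 RNAs a round, limma adjusted p = 0.000757). Each SE of a change comes from a spread shared by all 4 rounds and drawn toward that of all features. GALT, the uridylyltransferase of galactose metabolism, had ratios of -4.18 and -3.68 on the 2 round 0 arrays that gave one, both in Cy3, and 0.08, 0.06, -0.03 and 0.51 at round 3. Feature 1033 thus went from far below the reference to level with it (4.08 ± 0.32), while GALT's other clone stood at -0.56 and 0.50 and did not pass. ECI2, an isomerase of fatty acid oxidation, went from -2.08, -2.30, -2.25 and -1.78 to 1.34, 0.94, 1.77 and 1.56 in the clone of feature 5837. WDR41, part of a complex that acts at lysosomes, had -2.28, -2.12, -3.27 and -2.82 and then 0.79, 0.97, 1.50 and 0.75. In none of these 4 features did the arrays of the rounds overlap, and each kept its call in all 8 fits without 1 RNA.

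Among the further increases, FMOD, a small proteoglycan that binds collagen, stayed below the reference in both rounds, at -3.90 ± 0.01 (SD, n = 2) and -0.81 ± 0.23. EFNA5, a ligand of Eph receptors, moved from -3.59 ± 0.36 to -0.22 ± 0.01, and the hyaluronan receptor CD44 (feature 887) from -3.26 ± 0.11 to 0.36 ± 0.74. Each SD is between the dye-swap means of the 2 RNAs and leaves out the spread of arrays. The round 3 arrays of EFNA5 ran from -0.89 to 0.46. The transcriptional repressor HES1, a Notch target, rose by 2.65, from -0.61 ± 0.26 to 2.04 ± 0.22. SLC17A7, a vesicular glutamate transporter, and QDPR, which regenerates tetrahydrobiopterin, rose by 2.65 and 2.56. Of the 25 largest increases, 14 passed in each of the 8 fits without 1 RNA. TRANK1 was not among those: its round 3 arrays gave 3.11 and 3.14 in Cy3 and -0.79 in Cy5 replicate K, with no ratio in Cy5 replicate 1, against -1.05 to -0.92 at round 0.

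GPX3, the plasma glutathione peroxidase secreted by kidney tubules, fell most. Its ratios were 5.99, 6.65, 6.86 and 7.00 at round 0 and 3.31, -0.65, 2.49 and 1.15 at round 3. The change was -5.05 ± 0.53 (limma SE, n = 2 RNAs a round, limma adjusted p = 0.00775). The rounds did not overlap, but the 2 dyes of replicate 1 at round 3 stood on either side of the reference. PGLS, the lactonase of the pentose phosphate pathway, had 4.86, 5.44, 6.21 and 5.27 and then 0.40, 0.83, 0.32 and 0.87 in feature 4768. H19, an imprinted noncoding RNA, had 4.44, 4.80, 4.94 and 4.32 and then 0.50, -0.01, -0.03 and -0.03 in feature 2688. Both thus stood far above the reference in every round 0 array and near it in every round 3 array. RABGAP1, which acts on Rab GTPases, had 3.93, 3.81, 3.87 and 3.65 and then 0.52, -0.14, 0.52 and -0.06 in feature 2922.

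HSPB1, a small heat shock protein, crossed the reference in feature 7413, from 0.89 ± 0.54 (SD, n = 2) to -2.49 ± 0.05. The smooth muscle protein SMTN went from 1.30 ± 0.00 to -1.51 ± 0.01, though its round 0 arrays ran from 0.46 to 2.14. The AP-1 subunit FOSB went from 2.79 ± 0.15 to -0.16 ± 0.02, and PERP, a p53 target of cell junctions, from 2.60 ± 0.02 to -0.50 ± 0.19. SNRNP70, the 70K protein of the U1 spliceosomal particle, fell by 3.05 in feature 2556. Of the 25 largest decreases, 16 passed in each of the 8 fits without 1 RNA. STC1, a secreted glycoprotein made in kidney, was not among those. Its 3 round 0 ratios were 5.25, 3.33 and 3.03, and its round 3 ratios were 2.56 and 1.42 in Cy3 and -1.65 and -2.69 in Cy5 (feature 7401). SLC10A1, a bile acid transporter, passed although its arrays overlapped, with 1.18, 1.19, 3.28 and 1.04 at round 0 and 1.78, -2.75, -2.77 and -1.85 at round 3.

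**Figure D2:**
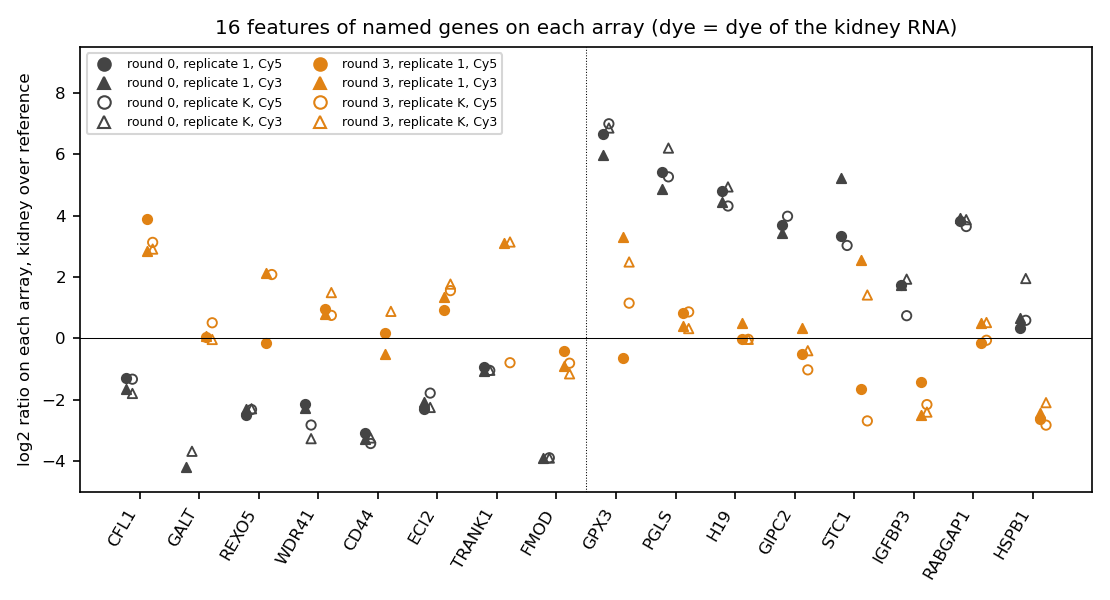
Log2 ratio of kidney over reference on each array for 16 features, with round 0 in grey and round 3 in orange, filled symbols for replicate 1, open ones for replicate K, circles for kidney in Cy5 and triangles for kidney in Cy3. The rounds lie apart in CFL1, PGLS and H19, while the round 3 arrays of TRANK1 and STC1 lie apart by dye.

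For CFL1, PGLS and H19 the ratio at rounds 1 and 2 already lay near that at round 3. Their step between rounds 0 and 1 falls where the decimals of the deposited ratios also change, and these cannot be told apart. CFL1 stood at 3.66 and 3.29 at rounds 1 and 2, PGLS at 0.51 and 0.47, and H19 (feature 2688) at 0.13 and 0.23. GPX3 and GIPC2 took a stepwise course, GPX3 with 4.45 and 3.48 and GIPC2, a PDZ scaffold protein, with 1.75 and 0.44 before -0.40 at round 3. SEC62 of the endoplasmic reticulum translocon also stepped down, with means of 1.52, 1.02, 0.21 and -0.52 at rounds 0 to 3, and MCL1, an inhibitor of apoptosis, stood at 0.39, 0.74, -0.74 and -1.25. The 253 higher features lay at medians of -0.86, 0.21, 0.38 and 0.62 in rounds 0 to 3, and the 390 lower ones at 0.88, -0.24, -0.47 and -0.66. These medians start from features chosen for their change between rounds 0 and 3 and carry no test.

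**Figure D3:**
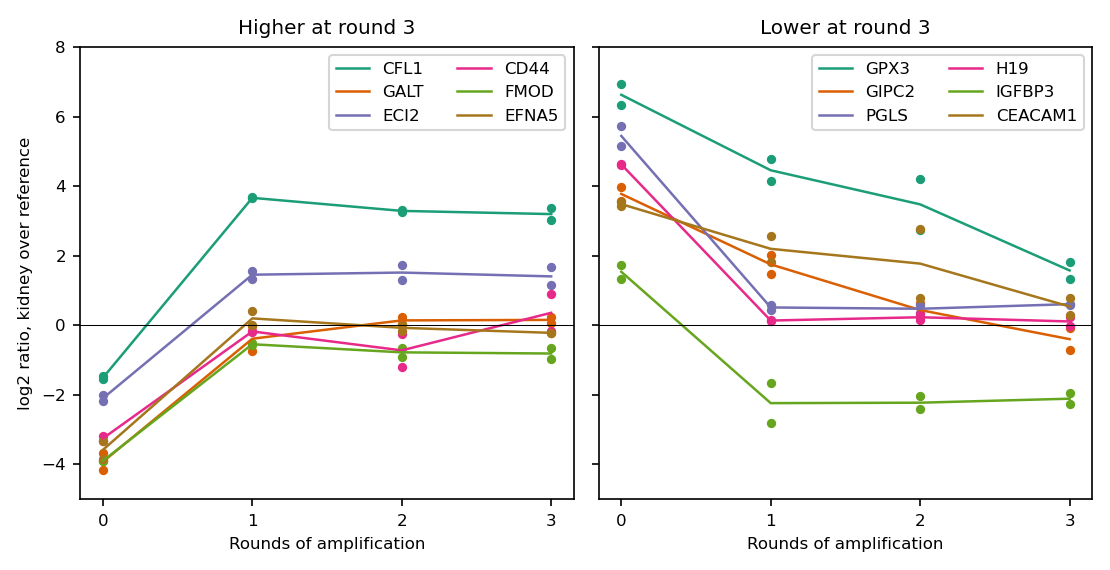
Log2 ratio of kidney over reference by rounds of amplification (0 to 3) for 6 features that rose (left) and 6 that fell (right), with lines through the means and points for the 2 RNAs. CFL1 goes from -1.51 at round 0 to 3.66 at round 1 and 3.20 at round 3, while GPX3 steps down through 6.62, 4.45, 3.48 and 1.57.

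Among markers of the proximal tubule, the segment that reclaims most of the filtrate, 3 of 14 features fell and 1 rose. That is 28.6% called, beside 11.6% of all features. The list, which holds GPX3 and GIPC2, was chosen with earlier results of these data known, so this share carries no test. Besides GPX3 and GIPC2 the fall was that of MME, the brush border peptidase neprilysin, from 3.38 ± 0.13 (SD, n = 2) to 1.95 ± 0.03 in feature 7029. SLC27A2, a fatty acid transporter, rose from 1.67 ± 0.15 to 3.10 ± 0.14. The brush border peptidases ENPEP and ANPEP did not pass, at 5.58 ± 0.04 and 5.22 ± 0.37 and at 3.98 ± 0.23 and 3.35 ± 0.30. Nor did the water channel AQP1 (4.44 and 4.16), the scaffold PDZK1 (4.14 and 3.52) or the peptidase DPP4, whose change of -1.67 had a limma adjusted p of 0.0517. The median change of the list was -0.49 beside 0.00075 over all features, but 0.03 after quantile normalization and 0.14 on the arrays with kidney in Cy5 alone. It was -0.25 without replicate K of round 3. With 1 RNA of round 0 or 3 left out, 2 to 3 of its features fell and 0 rose.

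Of 25 features for distal segments and the collecting duct, 5 fell and 0 rose (20% called, beside 11.6% of all features). They were STC1, the carbonic anhydrase CA12 (1.82 ± 0.10 to -0.63 ± 0.21 in feature 529), the transcription factor GATA3 (5.14 ± 0.73 to 3.28 ± 0.05 in feature 1877), the sodium channel subunit SCNN1A (4.38 ± 0.50 to 2.68 ± 0.17) and the claudin CLDN4 (0.99 ± 0.22 to -0.68 ± 0.09). The round 0 arrays of GATA3 feature 1877 ran from 4.24 to 7.07, and the other GATA3 clone, feature 1314, changed by -0.37 without passing. The water channel AQP3 stood at 2.97 and 2.99 in feature 5076. The calcium-binding S100G stood at 5.09 and 4.21 in feature 422, and neither AQP3 nor S100G passed. When 1 RNA of round 0 or 3 was left out 0 to 2 fell, and without centring 2 fell. At an unadjusted p under 0.05, 6 were lower and 2 higher, beside 1749 of all 5537 features at that level. The median change of the list was -0.37, but -0.05 without replicate K of round 0 and -0.17 without replicate K of round 3.

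Among markers of other cells, 3 of 11 endothelial features (27.3%), 1 of 3 podocyte features and 2 of 29 immune features (6.90%) were called, beside 11.6% of all features. The adhesion molecule PECAM1 (feature 6615) fell by 2.06 and the junctional cadherin CDH5 by 1.71, while PLVAP, of the diaphragms of fenestrated capillaries, rose by 1.85. The second PECAM1 clone, feature 7459, changed by 1.04 with a limma adjusted p of 0.0544. LCP1 of white blood cells rose by 1.14 in feature 907, where its other clone changed by -0.25, and the class II gene BOLA-DRA rose by 2.41. The BOLA-DRA ratios at round 0 were -4.47, 3.50, -3.31 and -1.02, so that 1 round 0 array stood above all 4 of round 3 (0.66 to 1.64). CD2AP of the slit diaphragm fell by 1.37, the only 1 of the 3 podocyte features with a change below 0. The median change of the 3 was 0.33. In the fits without 1 RNA of round 0 or 3, 0 to 1 endothelial features rose and 0 to 1 fell, 0 to 2 immune features rose, and limma called 0 podocyte features. In whole-tissue RNA, fewer cells of a type and less RNA per cell cannot be told apart. Both rounds are labelled as kidney RNA, and the part of cell content in these values was not tested.

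Imprinted genes and the insulin-like growth factor axis, which govern fetal growth, held 9 lower and 2 higher features among 33. That is 33.3% called, beside 11.6% of all features, and it counts 2 clones each of H19, IGFBP3 and PEG3. Both H19 clones fell, feature 2277 from 3.93 ± 0.00 (SD, n = 2) to 1.97 ± 0.31. IGFBP3, a carrier of insulin-like growth factors, fell in 2 of its 3 clones, by 3.65 (feature 7479) and 1.64 (feature 6980), and the third changed by -0.43 without passing. The zinc finger gene PEG3 fell in 2 of 7 clones, by 2.48 and 1.41. PHLDA2, which restrains placental growth, had 2.24, 1.85, 2.45 and 2.09 at round 0 and -0.11, -0.14, -0.07 and -0.03 at round 3. One of 3 IGF2 clones (feature 2736) rose, from -1.71, -1.38, -1.22 and -1.58 to 0.25, 0.54, 0.23 and 0.28, while the others changed by -1.34 and -0.42 without passing. IGFBP6 rose by 2.39. The median change of the list was -0.49. With 1 RNA of round 0 or 3 left out, 3 to 5 fell and 0 to 1 rose, and without centring 6 fell and 0 rose.

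Extracellular matrix genes showed 9 decreases and 4 increases among 64 features (20.3% called, beside 11.6% of all features). Their median change was 0.04, or -0.0014 without replicate 1 of round 3. The protease ADAMTS7 fell by 3.02, and MGP, an inhibitor of calcification, fell from 5.72 ± 0.12 (SD, n = 2) to 3.62 ± 0.26 and so stayed far above the reference. COL6A1, a chain of collagen VI, rose by 2.14, but its dyes differed at round 3, with 2.13 and 2.38 in Cy3 and -1.32 and -1.38 in Cy5. With 1 RNA of round 0 or 3 left out, 0 to 3 features fell and 2 to 3 rose.

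Solute carriers gave 10 increases and 6 decreases among 79 features (20.3% called, beside 11.6% of all features). SLC7A7, which exports cationic amino acids, rose from 2.85 to 4.20 and the organic anion transporter SLCO2B1 from 0.54 to 2.19, whereas the iron exporter SLC40A1 fell from 4.52 to 3.25 and the proton-coupled amino acid transporter SLC36A2 from 1.06 to -0.71 (feature 2485). Among channels, pumps and ABC transporters 2 of 56 rose and 4 fell (10.7% called, near the 11.6% of all features). The apical organic anion pump ABCC2 had 2.51, 3.90, 3.49 and 3.08 at round 0 and 0.77, 1.13, 1.32 and 1.01 at round 3, with no overlap. Its call held in all 8 fits without 1 RNA. The solute carriers had 1 to 3 increases and 0 to 2 decreases when 1 RNA of round 0 or 3 was left out, and 1 and 2 without centring.

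Genes of carbon metabolism gave 7 increases and 2 decreases among 52 features (17.3% called, beside 11.6% of all features). Their median change was 0.41, or 0.20 without replicate K of round 3. It was 0.04 without centring, beside -0.34 over all features. The increases included PDHA1 of pyruvate dehydrogenase (-0.64 to 1.34, feature 293), the galactokinase GALK1 (-1.33 to 0.43) and the glycolytic enzyme PKM (-2.23 to -0.72). Both called clones of PGAM1 rose (0.94 and 1.51), as did MDH2 of the citric acid cycle (1.06, feature 1285), whose other clone did not pass. PDK4, which inhibits pyruvate dehydrogenase, fell by 1.50. In fatty acid oxidation 3 of 28 rose, the 2 ECI2 clones and SLC27A2, and the lipid-binding FABP5 fell by 1.27 (feature 2820). That is 14.3% called, beside 11.6% of all features. The other FABP5 clones changed by -0.32, -0.31 and 0.20 without passing. Oxidative phosphorylation had 2 increases and 1 decrease among 56 (5.36%, below the 11.6% of all features), and limma called 0 of them with any 1 RNA of round 0 or 3 left out or without centring. At an unadjusted p under 0.05, 13 were higher and 2 lower, beside 1749 of all 5537 features at that level. For carbon metabolism 1 to 2 increases and 1 to 2 decreases passed with 1 RNA of round 0 or 3 left out, and 0 and 1 passed without centring.

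Splicing factors showed 13 decreases and 2 increases among 85 features (17.6% called, beside 11.6% of all features). Their median change was -0.27, or -0.14 without replicate K of round 3. SRSF1, a serine and arginine rich factor, stood at 0.05, 0.21, -0.31 and 0.33 at round 0 and -1.96, -0.92, -2.36 and -2.24 at round 3. Further SR and hnRNP genes that fell were SRSF3 (-1.12), SRSF7 (-1.31, feature 660), SRSF11 (-1.28), HNRNPH3 (-1.43), HNRNPK (-1.17) and HNRNPU (-1.31, feature 8071). SF3B1 of the U2 particle fell by 0.97 in feature 2000. The other clones of SRSF7, HNRNPU and SF3B1 did not pass. LSM4 rose by 1.62 and PRPF31 by 1.80 in feature 4756, where its other clones changed by -1.15 and -0.84 without passing. With 1 RNA of round 0 or 3 left out, 0 to 1 fell and 0 to 2 rose, and without centring limma called 0. At an unadjusted p under 0.05, 23 were lower and 6 higher with centring, beside 1749 of all 5537 features at that level.

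Transcription factors gave 17 decreases and 6 increases among 127 features (18.1% called, beside 11.6% of all features). Their median change was -0.19, or -0.36 without replicate 1 of round 0 and -0.08 without replicate K of round 0. The epithelial factor ELF3 fell by 2.47, TCF7L1 of the Wnt pathway by 2.40 and 2.02 in 2 of 3 clones, and the endothelial factor KLF2 by 1.18 (feature 4174). CEBPB and CEBPD, which act in acute responses, rose by 1.22 (feature 3712) and 1.28 (feature 5058). The other clones of KLF2, CEBPB and CEBPD did not pass. Immediate early and stress genes had 7 decreases and 4 increases among 62 (17.7% called, beside 11.6% of all features). GADD45A, a growth arrest gene, had 2.23, 2.02, 2.00 and 2.13 at round 0 and -0.42, 0.49, -0.25 and 0.38 at round 3, while JUNB (feature 1674) rose from -1.29 to 0.09 and the antiproliferative gene BTG1 (feature 4168) from -1.83 to -0.05. The other clones of JUNB (-0.48) and BTG1 (-0.41 and -0.19) did not pass. With 1 RNA of round 0 or 3 left out, 2 to 5 transcription factor features fell and 0 to 2 rose, and for the stress list 2 to 3 fell and 0 to 1 rose.

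Genes of the cytosolic ribosome gave 5 increases and 2 decreases among 56 features, a share of 12.5% near the 11.6% of all features. RPS10 rose by 2.01, RPL28 by 1.25 and RPS2 by 1.22, and RPS3A and RPL30 fell by 1.55 and 1.25. With any 1 RNA of round 0 or 3 left out limma called 0 of them, while with all RNAs 6 were higher and 8 lower at an unadjusted p under 0.05. Of 44 mitochondrial ribosomal features (9.09% called) MRPS34 rose, from -0.63, -0.87, -1.02 and -0.58 to 1.73, 1.22, 1.58 and 1.47, and 3 fell. Proteasome and ubiquitin genes had 7 changes each way among 114 (12.3%), led by the deubiquitinases USP19 (2.98) and USP2 (-2.33). Vesicle traffic had 5 increases and 7 decreases among 110 (10.9%), among them SEC61A1, the channel of the translocon (-1.92). Small GTPases and their regulators had 4 and 8 among 127 (9.45%). These shares also lay near 11.6%. When 1 RNA of rounds 0 and 3 was left out, 1 to 3 proteasome and ubiquitin features rose and 1 to 2 fell, 0 to 2 and 1 to 5 for vesicle traffic, and 0 to 4 and 1 to 2 for small GTPases. Of 60 cytoskeletal features CFL1, the actin crosslinker ACTN4 (1.95) and the microtubule protein MAP1B (1.96) rose and 0 fell. That share of 5% lay below the 11.6% of all features. At an unadjusted p under 0.05, 14 cytoskeletal features were higher and 7 lower. Among 10 histone features limma called 0, with 4 at an unadjusted p under 0.05, and among 7 reference gene features it called 0, with 2 at that level. Of all 5537 features 1749 reached that level.

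**Figure D4:**
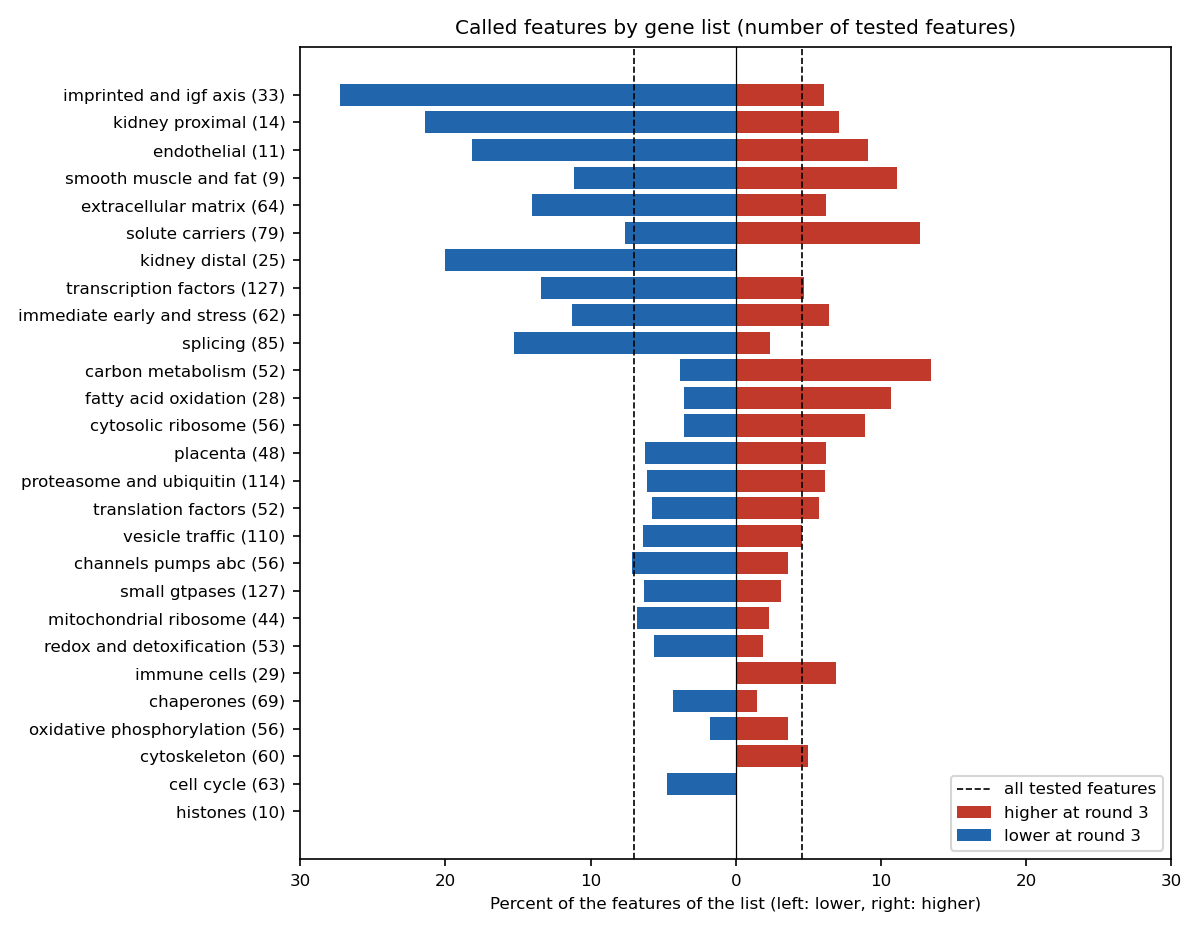
Percent of the features of each gene list called higher (red, right) or lower (blue, left) at round 3, for the lists with 9 or more tested features, whose number is in brackets. Dashed lines mark all tested features, 4.57% higher and 7.04% lower, and the list of imprinted and growth factor genes has the longest bar to the left, with 9 of 33 lower.

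Clones of the same gene often differed. Of 905 genes with 2 or more tested clones, 193 had a call and in 174 of these a single clone was called. Over the 756 genes with exactly 2 clones, the changes of the clones correlated at 0.198, against 0.605 for their ratios at round 0 and 0.457 at round 3 (Pearson r across genes, which are not independent replicates). All clones rose in ECI2, PDXK (vitamin B6 kinase) and JTB, and all fell in CAPN6, H19 and SERBP1. CAPN6, a calpain relative, fell from 5.95 to 1.06 in feature 3046 and from 4.08 to 2.00 in feature 2281. SERBP1, an RNA-binding protein, fell by 1.43 and 1.35.

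Opposite calls were made in ANXA8L1, LRATD1, NPPC, SYNCRIP and TCF12. In SYNCRIP, an hnRNP protein, feature 882 went from -0.35 to -2.08 and feature 12 from -1.44 to -0.37, and its other two clones did not pass. In ANXA8L1, an annexin, features 7868 and 5852 rose by 2.79 and 2.64 and feature 1738 fell by 1.25. The second PGLS clone, feature 3098, changed by 1.46 where feature 4768 fell, with a limma adjusted p of 0.0616. Of 4 HSPB1 clones feature 7413 alone passed, and the others changed by -0.27, 0.85 and 1.24. For SNRNP70, CA12 and RABGAP1 the other clone changed by 1.07, 0.43 and 0.24 without passing, where the one described above fell. A second CDH1 clone stood at 3.17 and 2.96, while feature 2750 of this epithelial cadherin fell by 3.17.

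**Figure D5:**
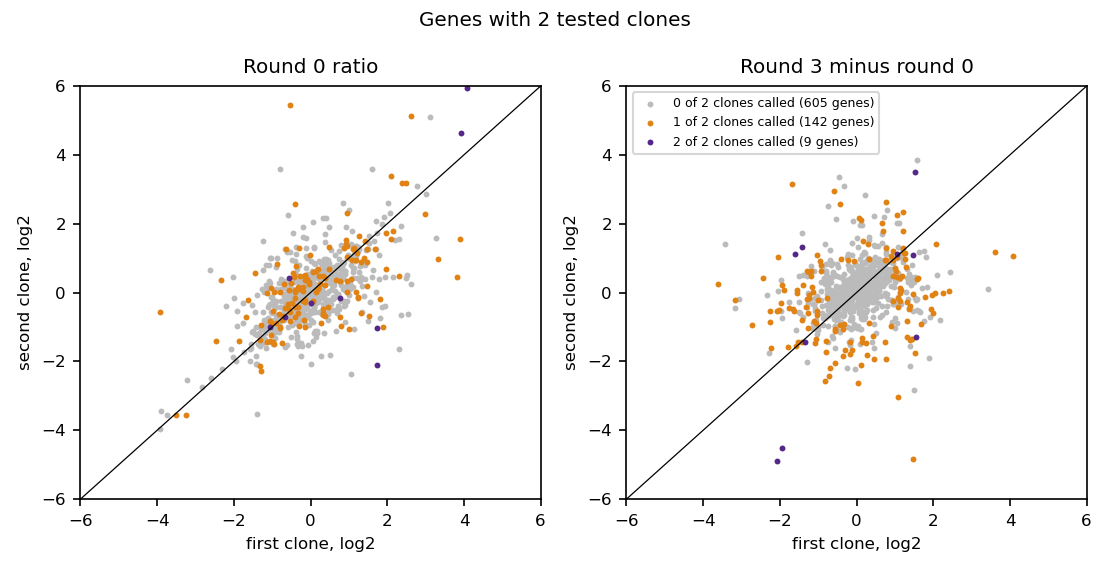
Values of the 2 clones of 756 genes plotted against each other, as the log2 ratio at round 0 (left) and as the change from round 0 to round 3 (right), with colours for the number of clones called. The points follow the diagonal more closely at round 0 (r = 0.605) than for the change (r = 0.198).

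The ratios of the 2 RNAs of a round were closer than those of the rounds. Across 5537 features, which are not independent replicates, replicates 1 and K correlated at 0.814 at round 0 and 0.723 at round 3, and an RNA of round 0 with one of round 3 at 0.494 to 0.524. The median SD between replicates was 0.15 at round 0 and 0.23 at round 3. The change in replicate 1 correlated with that in replicate K at 0.538, and 73.6% of all features had the same sign in both replicates. Of the called features 0 had opposite signs, but the call itself favours changes that the replicates share. Between the dyes the agreement was looser: changes on Cy3 and Cy5 arrays correlated at 0.400 over 4761 features, and 3 called features had opposite signs. Of the 643 called features, 574 had no overlap between the arrays of the rounds. Over all features 24.0% had none, 10.2% with round 3 above and 13.8% with round 3 below, and the 2 RNAs of each round did not overlap in 65.1%.

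Features far from the reference in one round were in part nearer to it in the other, whichever round was used to choose them. Of 160 features above 2 in both RNAs of round 0, 76 had a mean above 2 at round 3, and of 116 above 2 in both RNAs of round 3, 73 had a mean above 2 at round 0. On the other side, 48 of 93 features below -2 at round 0 and 43 of 73 below -2 at round 3 were beyond -2 in the other round. The SD of the ratios over features was 1.09 and 1.11 in the RNAs of round 0 and 1.01 and 1.06 in those of round 3. Of the called features, 139 of 253 higher and 219 of 390 lower ones were nearer the reference at round 3, and of all 5537 features 2900 were.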

How the data were processed

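Per the deposited files, 15 arrays hold log2 ratios of Cy5 and Cy3. The deposited column of the round 1, replicate 1, Cy3 array, which enters the round 1 means, the choice of tested features and the shared estimate of spread, also holds numbers outside that range and is called a score. How the authors scanned, corrected and normalized the arrays is not given in the sources used here. Arrays with kidney in Cy3 were turned to kidney over reference, values beyond 10 in size were dropped, the median of the features with a listed gene was subtracted from each array, and duplicate spots and dye swaps were averaged. Features needed a listed gene and a value in both RNAs of every round. No intensities were used, so dim spots could not be filtered, and precision is limited by the number of arrays.

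A mean for each of the 4 rounds was fitted with limma 3.58.1 (lmFit, eBayes) in R 4.3.3 (tables read by data.table version 1.17.8), with 4 residual and 2.40 prior degrees of freedom and Benjamini-Hochberg adjustment over all 5537 features. The fit was tested on simulated data. Summaries used Python 3.11.15, pandas 2.3.3 and numpy 2.4.6, and plots matplotlib 3.10.9. Replicate numbers were not shown to pair RNAs, since residuals correlated above 0.1 in 1 of 6 pairs of rounds. Gene names come from the platform's annotation; all 5591 found in a current table had the same symbol.

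Named are the 25 largest called changes each way with no overlap between RNAs, the 3 largest called each way per list, genes whose clones were all called one way or in opposite ways, the 5 called features each way with the widest gap between arrays, and other clones of these. Other list members and unchanged kidney genes were named after their values were seen. The comparison, lists and rule were chosen with earlier results of these data known.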

Additional observations from a re-analysis of the deposited data

Results flagged for a closer look

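Clones with no gene in the annotation table were kept out of the main test, as controls and clones are not told apart there. In a fit of all 8007 features, listed or not, 696 (8.69%) passed the limma test between rounds 3 and 0. Of the 2470 features with no listed gene, 204 (8.26%) passed in that fit, 72 higher and 132 lower, a signal in data that the comparison above does not use. Their changes reached 5.26 upward and -4.72 downward.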

How the results depend on the processing

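The count of 643 called features changed with many settings. It was 130 without centring, 200 when only rounds 0 and 3 were fitted, 1167 with all 16 arrays and a dye term, 391 on arrays with kidney in Cy3, 123 for a minimum difference of 0.5 and 310 (of 5451 tested) without the round 1, replicate 1, Cy3 array. Leaving out 1 RNA gave 91 to 541, with 378 and 381 without replicates 1 and K of round 2. The replicate block gave 567. The other settings gave 475 to 844, and a filter for duplicate spots within 1 log2 unit called 638 of 1565 features where the main setting called 230 of these. Among 159 named and called features, 0 changed direction under the settings in which they could be fitted, and 60 still passed without centring. They were chosen for their calls and the settings refit the same arrays, so the kept direction carries no test. Of 594 called features fitted on arrays with kidney in Cy5, 1 was called in the opposite direction. The cause of the shifts in count was not tested. With 2 RNAs a round, no intensities and 2 dyes that agree only loosely at round 3, single clones with widely spaced arrays are the least certain values.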
